A study of Homo sapiens with 51 samples.

Results

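The 10 genes described here encode parts of the desmosome and its plaque: DSG2, DSC2, DSC3, JUP, PKP1, PKP2, PKP3, DSP, PPL and PERP. They were taken by gene symbol from a table of 25421 genes, whatever their values. They were measured by PLATE-seq, a method that barcodes cDNA well by well and sequences the pooled libraries, in 51 libraries of 5 human pancreatic ductal adenocarcinoma cell lines. The libraries form 17 groups of 3. KP4, PANC1 and PK45H were each sampled untreated, after lentiviral delivery of an mCherry open reading frame (the control), after delivery of an OVOL2 open reading frame, and after co-transduction of mCherry or of OVOL2 with M2rtTA, a transactivator that amplifies expression from tetracycline-inducible constructs. HPAFII and PATU8988S were sampled untreated only. Lentivirus was given at a multiplicity of infection of 2 with polybrene at 8 µg/ml, and puromycin (2.5 µg/ml) and doxycycline (0.6 µg/ml) were added on the day after. All transduced groups therefore carry selection and doxycycline, the mCherry controls included. Each line is a single established line, so lines are not replicates of a tumour class, and the labels name a triplicate of transductions but no separate cultures of origin. The p-values below measure the spread between these libraries.

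Desmosomes are button-like junctions that tie the intermediate filaments of neighbouring epithelial cells together. Desmogleins and desmocollins, the desmosomal cadherins, bind each other between the cells. Plakoglobin (JUP) and the plakophilins hold the cadherin tails, desmoplakin (DSP) ties this plaque to keratin filaments, periplakin (PPL) is a further plakin of the cell cortex, and PERP is a tetraspan membrane protein needed for stable desmosomes in stratified epithelium. OVOL2 is a zinc-finger repressor that favours the epithelial state, and ZEB1, a repressor of epithelial genes that binds E-box motifs, is among its known targets.

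Library totals ran from 1165399 to 7490556 counts, with 15653 to 18817 genes detected and 21.9% to 33.6% of counts from the 13 mitochondrially encoded protein genes. That share moved with OVOL2 in PANC1, from a mean of 23.7% with mCherry to 28.7% with OVOL2 and, with M2rtTA, from 25.1% to 30.9%, and was highest in PATU8988S at 32.5%. With these transcripts left out, the total of every library is smaller and levels rise whatever the gene. On that scale 102 of 170 group levels moved by more than their SD. This count does not show how far differences between groups depend on the mitochondrial share. The shallowest library, untreated HPAFII replicate 2, stood apart from its mates: 269 other genes that were high in HPAFII replicates 1 and 3 were at a median of 0.369 of their level in it. The same ratio, over genes chosen from the other two libraries, was 1.13 for replicate 1 and 1.14 for replicate 3. The 6 ductal markers (KRT7, KRT8, KRT18, KRT19, SOX9, EPCAM) summed to between 647 and 14387 CPM (the count divided by the library total in units of 1e6, scaled with TMM factors) in every library. The 5 squamous markers summed to 0.679 to 13.2 CPM, the 3 endothelial ones to 2.90 to 13.7 CPM, and the 4 immune ones to at most 31.8 CPM. The fibroblast sum over 5 genes, of which LUM never passed 3 counts in any library, ran from 7.17 to 64.8 CPM. It moved with OVOL2 in the presence of M2rtTA, from 12.3 to 24.0 CPM with mCherry to 42.3 to 52.0 CPM with OVOL2 in KP4, from 22.5 to 34.7 to 47.0 to 64.8 CPM in PANC1, and from 11.0 to 12.8 to 26.1 to 32.7 CPM in PK45H. Without M2rtTA it ran from 15.2 to 19.7 CPM with mCherry and from 22.4 to 25.9 CPM with OVOL2 in KP4, where COL1A1 rose (0.86, edgeR adjusted p = 0.0422), and overlapped in PANC1 and PK45H. COL1A1 was the 1 gene of the list that rose with M2rtTA (log2 fold change 1.72 over the lines, edgeR adjusted p = 1.19e-11). The part of these transcripts in the results below was not tested.

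Reads of OVOL2 itself were few. Without M2rtTA the OVOL2 libraries held 0.201 to 1.87 CPM and the mCherry libraries 0 to 2.21 CPM, and the mean log2 difference over the 3 lines was -0.09 (SE 0.46, edgeR quasi-likelihood test, adjusted p = 0.926). With M2rtTA the OVOL2 libraries held 1.46 to 10.5 CPM against 0 to 1.74 CPM, a log2 fold change of 2.15 (SE 0.44, adjusted p = 0.00021). Whether these reads include RNA from the introduced reading frame is not given in the sources used here, so the level of OVOL2 does not check the labels of the libraries without M2rtTA. ZEB1 fell over the lines in both sets, by 2.64 and 1.95 on the log2 scale.

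Over the 3 lines, 4 of the 9 members tested rose with OVOL2 in each set and 1 fell. Without M2rtTA, JUP, PKP3, DSP and DSG2 rose and PERP fell. With M2rtTA, JUP, PKP3, DSP and PPL rose and PERP fell. DSC2, DSC3 and PKP2 passed the threshold in neither set, and PKP1 had too few counts to be tested. These are contrasts of group means, each line against its own mCherry control, by edgeR's quasi-likelihood test, with a member called when its p, adjusted by Benjamini-Hochberg over all genes tested, was under 0.05. Of all 14943 genes tested, 18.1% were called in the set without M2rtTA, 9.32% upward and 8.81% downward. In the set with M2rtTA 32.9% were called, 15.7% upward and 17.3% downward. The median log2 fold change of the 9 members was -0.02 without M2rtTA, where that of all genes was 0.00098, and 0.27 with it, where that of all genes was 0.033. In bulk RNA, more cells with a transcript and more RNA per cell cannot be told apart.

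**Figure D1:**
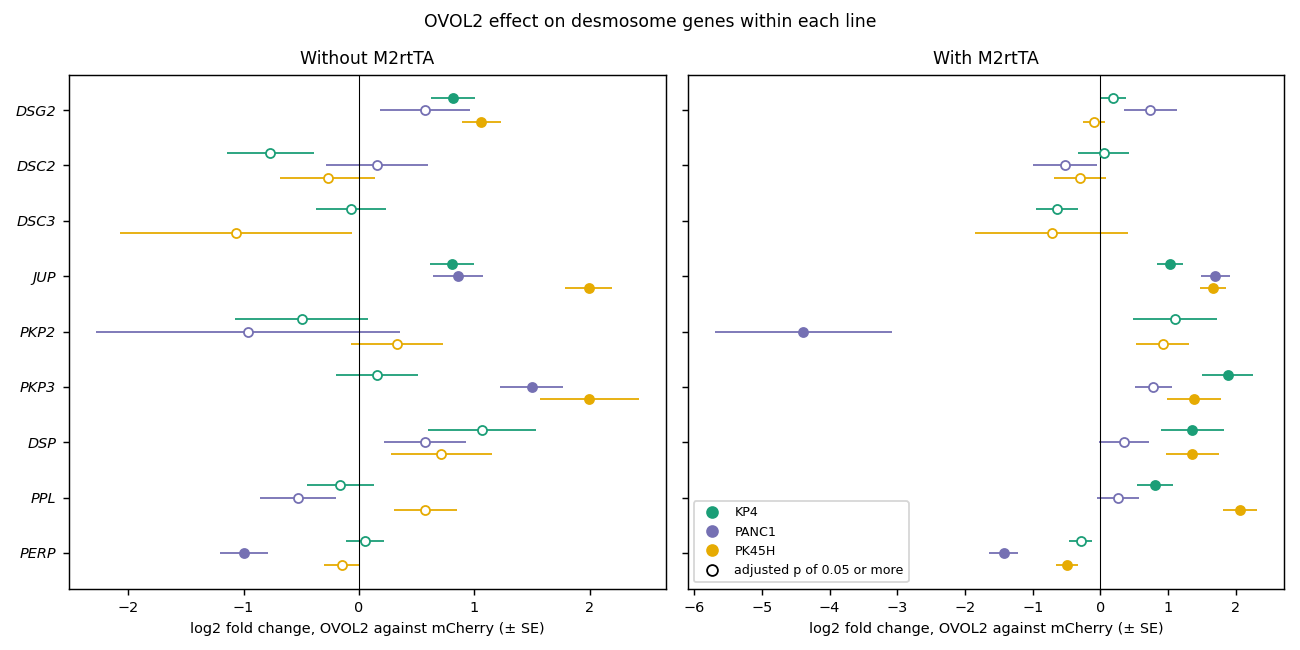
Log2 fold change of OVOL2 against mCherry, in each of the 3 lines, for the members tested, without M2rtTA (left) and with M2rtTA (right). Points are estimates from the fit of each line, bars are 1 standard error, filled points have an adjusted p under 0.05, and the horizontal scales of the panels differ. JUP was right of 0 and called in all 6 contrasts, PERP was left of 0 in PANC1 in both sets, and the wide PKP2 value of PANC1 with M2rtTA rests on 1 control library.

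JUP encodes plakoglobin, the armadillo protein shared by desmosomes and adherens junctions, at chr17:41754609-41786711 on GRCh38.p14. In PK45H it stood at 22.3, 22.5 and 25.0 CPM with mCherry and at 76.5, 88.2 and 119 CPM with OVOL2. With M2rtTA the PK45H libraries held 35.3, 30.9 and 28.9 CPM with mCherry and 106, 93.9 and 100 CPM with OVOL2. The ranges were far apart in both sets, with log2 fold changes of 1.99 (SE 0.20, edgeR adjusted p = 3.3e-05) and 1.66 (SE 0.20, adjusted p = 7.97e-05). In KP4 it stood at 39.3, 38.4 and 37.7 CPM with mCherry and at 82.9, 58.8 and 59.6 CPM with OVOL2, and with M2rtTA at 43.0, 52.1 and 51.4 against 102, 74.0 and 121 CPM. Every OVOL2 library was above every control library of its set, with log2 fold changes of 0.81 (SE 0.19, edgeR adjusted p = 0.0239) and 1.02 (SE 0.19, adjusted p = 0.00172). In PANC1 the values were 44.1, 49.4 and 46.1 CPM with mCherry, 113, 74.4 and 64.4 CPM with OVOL2, and with M2rtTA 48.9, 41.6 and 61.1 against 130, 153 and 196 CPM. The log2 fold changes there were 0.86 (SE 0.22, edgeR adjusted p = 0.0339) and 1.70 (SE 0.22, adjusted p = 0.000154), again with no overlap. Without M2rtTA the KP4 call was lost without OVOL2 replicate 1 or any mCherry library, and the PANC1 call without OVOL2 replicates 1 or 2 or any mCherry library. The KP4 call was also lost in a fit of all 51 libraries (adjusted p = 0.0543), and the PANC1 call in a fit of only the groups compared (adjusted p = 0.0808) or after thinning to equal totals (adjusted p = 0.1).

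JUP was the member called in all 6 contrasts within lines. Its effect without M2rtTA differed between the lines (edgeR test of the difference, adjusted p = 0.017, with 2.74% of all genes called). That call was lost without PK45H OVOL2 replicate 3 or PK45H mCherry replicate 1, in a fit of all 51 libraries (0.0769), of only the groups compared (0.0504) and after thinning (0.055). Over the lines the log2 fold change was 1.24 (SE 0.12, edgeR adjusted p = 1.35e-09) without and 1.46 (SE 0.12, adjusted p = 8.86e-12) with M2rtTA. The 2 smaller effects depended on the control. Against the untreated libraries, an alternative added after the data were seen, JUP differed by 0.13 in KP4 (edgeR adjusted p = 0.77) and 0.26 in PANC1 (adjusted p = 0.53) without M2rtTA, and by 1.79 in PK45H. With M2rtTA the same comparison gave 0.69, 1.2 and 1.90. The untreated level was 62.2 ± 10.3 CPM in KP4 and 71.7 ± 8.98 CPM in PANC1 (SD, n = 3), above the mCherry level in both.

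The promoters of the members were searched for the E-box CACCTG, read on either strand as CACCTG or CAGGTG, because ZEB1 and SNAI1 are known to bind it. RefSeq promoter sequence (GRCh38.p14, 250 bases upstream of the start) was at hand for 7 of the 10 genes; PKP2, PKP3 and PPL were not matched. These 7 genes have 9 listed promoters, of which 4 held the motif in that window, 1 in each of 4 genes, against 17.5% of 35116 promoters. Those of DSG2, DSP and JUP each held it 2 times, against 2.53% of all promoters with 2 or more. These shares were not matched for base composition, and its part was not tested. G and C made up 78.0% (DSP), 75.2% (DSG2), 66.0% (JUP) and 59.6% (DSC2) of the 250 bases with a match. They made up 60.4% to 77.2% of those without one, and the median of all promoters was 58.0%. All windows of 30 bases around a match are shown 5′ to 3′ on the strand of the gene, with the E-box in capitals. JUP's, at chr17:41786007-41786036, begins its 2 matches 54 and 43 bases upstream of one of its 2 RefSeq starts, the inner one, which lies within the gene's span. The promoter at the outer start of JUP held no match. DSP's lie at chr6:7541481-7541510 and chr6:7541574-7541603, DSG2's at chr18:31497933-31497962 and chr18:31498049-31498078, and DSC2's at chr18:31102560-31102589. In the GENCODE v29 annotation, JUP's window and the nearer ones of DSP and DSG2 lie in a 5′ UTR exon, and the others lie upstream of annotated transcripts.
JUP: tggcccCACCTGccgagCAGGTGagcgcac
DSP, 178 bases upstream: gggcggcgggcgCAGGTGgggaggggcggc
DSP, 85 bases upstream: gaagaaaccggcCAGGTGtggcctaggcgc
DSG2, 232 bases upstream: acgtcacggtccCAGGTGcgagtgcgagcg
DSG2, 116 bases upstream: tcgcggcggccaCACCTGgagccgcgcctt
DSC2, 156 bases upstream: tcaactttctgtCAGGTGggcctcaggcag
Of the genes with a match, JUP and DSP rose with OVOL2 over the lines in both sets. DSG2 rose without M2rtTA and was not called with it, and DSC2 was called in neither set. Of those searched without a match, PERP fell in both sets, DSC3 was called in neither and PKP1 was not tested. PKP3 and PPL, which also rose, had no promoter to search. Whether the matches bear on these changes was not tested. The motif CCGTTA, the core that OVOL proteins are known to recognise, read on either strand as CCGTTA or TAACGG, was in none of the 9 promoters of the 7 genes and in 2.45% of all promoters. A match of letters is a description, and none of these windows was tested for binding.

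PKP3 encodes plakophilin 3, an armadillo protein of the desmosomal plaque (chr11:392596-404908). In PANC1 it stood at 3.15, 5.17 and 3.86 CPM with mCherry and at 12.6, 10.4 and 11.9 CPM with OVOL2. Every OVOL2 library was above every control library, with a log2 fold change of 1.5 (SE 0.27, edgeR adjusted p = 0.00565). After thinning PKP3 did not enter this PANC1 test, so the call was not checked at equal depth. With M2rtTA the same line held 5.34, 5.23 and 3.12 CPM with mCherry and 6.33, 7.74 and 8.92 CPM with OVOL2, which did not overlap but missed the threshold (0.78, SE 0.28, adjusted p = 0.0789). PK45H held 2.46, 5.82 and 3.22 CPM with mCherry and 9.68, 16.8 and 18.3 CPM with OVOL2, and with M2rtTA 5.17, 2.04 and 6.09 against 12.3, 10.9 and 11.8 CPM. The log2 fold changes were 1.99 (SE 0.43, edgeR adjusted p = 0.0102) and 1.38 (SE 0.40, adjusted p = 0.0299), with no overlap in either set. The call with M2rtTA was lost without any 1 of the 6 libraries except mCherry + M2rtTA replicate 3, and the call without M2rtTA was lost without mCherry replicate 1. Both were lost after thinning (adjusted p = 0.0928 without and 0.173 with M2rtTA).

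In KP4 PKP3 was called with M2rtTA and not without it. Without M2rtTA it stood at 1.61, 2.47 and 1.84 CPM with mCherry and at 2.60, 1.71 and 2.19 CPM with OVOL2, which overlapped (0.15, SE 0.36, edgeR adjusted p = 0.88). With M2rtTA it stood at 0.897, 1.02 and 1.16 CPM with mCherry (4, 4 and 6 counts). With OVOL2 and M2rtTA it stood at 3.35, 3.88 and 4.35 CPM (20, 23 and 17 counts). These ranges were apart (1.88, SE 0.38, edgeR adjusted p = 0.0029). After thinning PKP3 did not enter the KP4 test, so this call was not checked at equal depth. The difference between the sets was 1.72 on the log2 scale and did not pass the threshold (edgeR adjusted p = 0.13). Over the lines the log2 fold change of PKP3 was 1.23 (SE 0.21, adjusted p = 3.06e-05, or 0.0516 after thinning) without and 1.34 (SE 0.21, adjusted p = 3.85e-06) with M2rtTA.

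PKP2, plakophilin 2 (chr12:32790755-32896777), is the plakophilin with the broadest known tissue range. Of the OVOL2 contrasts within lines it was called in 1, and that call rested on 1 library. PANC1 with mCherry and M2rtTA held 8.00, 427 and 2.49 CPM (36, 2203 and 12 counts), and PANC1 with OVOL2 and M2rtTA held 7.06, 7.46 and 5.87 CPM. The second control library was far above both its mates and the OVOL2 libraries, while the other two lay on both sides of them. The log2 fold change was -4.39 (SE 1.31, edgeR adjusted p = 0.0376), and without that library it was 0.42 (adjusted p = 0.737). The call was also lost without any 1 of the OVOL2 libraries. A second library stood out in the same way, with 1520 CPM in untreated HPAFII replicate 2 (1943 counts) beside 38.5 and 46.6 CPM in its mates. Over the lines PKP2 differed by -0.36 (SE 0.52, adjusted p = 0.699) without and -0.79 (SE 0.52, adjusted p = 0.254) with M2rtTA. The second of these was 0.81 (SE 0.35, adjusted p = 0.0739) without PANC1 mCherry + M2rtTA replicate 2, so its sign rested on that library. PK45H carried 16.9 to 89.2 CPM over its 15 libraries, with the highest in OVOL2 + M2rtTA replicate 3.

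PKP1, plakophilin 1, is known chiefly from stratified epithelium (chr1:201283506-201332989). It had 0 to 8 counts in each library, the most in PANC1 mCherry replicate 3, and was tested in no comparison. In HPAFII it had 0 counts in all 3 libraries, which at these depths does not show that it was absent.

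DSP encodes desmoplakin, which links the plaque to keratin filaments (chr6:7541671-7586714). PK45H with M2rtTA held 6.64, 4.63 and 4.06 CPM with mCherry and 19.6, 8.28 and 11.1 CPM with OVOL2. KP4 with M2rtTA held 2.02, 4.09 and 4.27 CPM with mCherry and 4.36, 15 and 7.17 CPM with OVOL2. Neither pair of ranges overlapped, although in KP4 the lowest OVOL2 library lay just above the highest control, and both log2 fold changes were 1.36 (SE 0.39, edgeR adjusted p = 0.0296 in PK45H; SE 0.46, adjusted p = 0.0496 in KP4). The KP4 call was lost without a low-count filter (edgeR adjusted p = 0.0536) and in a fit of only the groups compared (0.105). It was also lost without any 1 of the 6 libraries except OVOL2 + M2rtTA replicate 1. The PK45H call was lost without OVOL2 + M2rtTA replicate 1 or mCherry + M2rtTA replicates 2 or 3. After thinning DSP did not enter the test of either line, so neither call was checked at equal depth. Without M2rtTA, KP4 held 4.35, 3.08 and 1.38 CPM with mCherry and 5.80, 7.42 and 5.64 CPM with OVOL2, which were apart but missed the threshold (1.06, SE 0.47, adjusted p = 0.211). PK45H held 6.38, 1.55 and 2.76 against 5.19, 6.73 and 6.64 CPM, which overlapped (0.71, SE 0.44, adjusted p = 0.355). In PANC1 the ranges overlapped in both sets, with log2 differences of 0.57 (adjusted p = 0.424) and 0.35 (adjusted p = 0.589). Over the lines DSP rose by 0.80 (SE 0.26, adjusted p = 0.0263) without and 1.02 (SE 0.25, adjusted p = 0.00141) with M2rtTA. The first of these was lost without KP4 OVOL2 replicate 2, KP4 mCherry replicate 3, PANC1 OVOL2 replicate 3, PANC1 mCherry replicate 2, or PK45H mCherry replicates 2 or 3, and thinning ended both (adjusted p = 0.0844 and 0.0707).

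PPL encodes periplakin (chr16:4882507-4937148), a plakin of desmosomes and of the cornified envelope. PK45H with M2rtTA held 6.35, 8.14 and 5.37 CPM with mCherry and 31.5, 30.5 and 20.3 CPM with OVOL2, a log2 fold change of 2.06 (SE 0.25, edgeR adjusted p = 0.000116) with the ranges apart. KP4 with M2rtTA held 6.05, 8.17 and 5.05 CPM with mCherry and 9.55, 13.8 and 9.73 CPM with OVOL2, also apart (0.80, SE 0.27, adjusted p = 0.044). In PANC1 with M2rtTA the values overlapped, at 9.12, 6.39 and 12.0 against 8.04, 14.5 and 9.16 CPM (0.26, adjusted p = 0.641). The KP4 call was lost without any 1 of the 6 libraries except mCherry + M2rtTA replicate 2, and in 4 other settings (adjusted p from 0.0524 to 0.111). After thinning PPL did not enter the KP4 test, so that call was not checked at equal depth. The effects with M2rtTA differed between lines (edgeR adjusted p = 0.0085, with 7.56% of all genes called), which thinning ended (0.206).

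Without M2rtTA no line passed the threshold for PPL against mCherry. The log2 differences were -0.16 for KP4 (edgeR adjusted p = 0.833) and -0.53 for PANC1 (adjusted p = 0.426). For PK45H it was 0.58 (adjusted p = 0.226), with the ranges apart. Against untreated libraries PANC1 was called (-1.31, SE 0.33, adjusted p = 0.0189). The mean was -0.02 (adjusted p = 0.961) without and 1.04 (SE 0.16, adjusted p = 4.66e-06) with M2rtTA, and the difference of the 2 effects was 1.06 (SE 0.24, adjusted p = 0.00465; 0.99 and 0.236 after thinning). PPL was the 1 member of 9 for which M2rtTA changed the mean effect; 7.72% of all genes were called in that test, and 2.61% were higher. Within PK45H alone the same difference was 1.49 and missed the threshold (edgeR adjusted p = 0.062). With DESeq2 it was 1.51 and was called (adjusted p = 0.0183).

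DSG2, desmoglein 2 (chr18:31498177-31549008), is the desmoglein of simple epithelia. PK45H held 76.1, 61.6 and 88.9 CPM with mCherry and 164, 154 and 165 CPM with OVOL2, a log2 fold change of 1.06 (SE 0.17, edgeR adjusted p = 0.0013). KP4 held 28.5, 16.8 and 17.5 CPM with mCherry and 37.0, 34.8 and 38.2 CPM with OVOL2, a change of 0.81 (SE 0.19, adjusted p = 0.0213) that was lost without any OVOL2 library or without mCherry replicates 2 or 3. It was also lost in a fit of all 51 libraries (adjusted p = 0.12), of only the groups compared (0.0679) and after thinning (0.0811). In neither line did the ranges overlap. With M2rtTA they did, at 93.6, 125 and 93.1 against 97.3, 113 and 80.7 CPM in PK45H (-0.10, edgeR adjusted p = 0.751) and 22, 23.0 and 18.4 against 21.9, 28.2 and 21.3 CPM in KP4 (0.18, adjusted p = 0.543). In PANC1 the log2 difference was 0.57 without (adjusted p = 0.482) and 0.73 with M2rtTA (adjusted p = 0.248).

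In PK45H the OVOL2 effect on DSG2 was lower with M2rtTA than without it by 1.16 on the log2 scale (SE 0.24, edgeR adjusted p = 0.0288), the 1 member called there, where 1.6% of all genes were. That call was lost without 7 of the 12 libraries (any OVOL2 library, OVOL2 + M2rtTA replicate 3, mCherry + M2rtTA replicate 2, or mCherry replicates 1 or 2). DSG2 means in the PK45H controls were 75.6 ± 13.6 CPM with mCherry, 104 ± 18.3 CPM with mCherry and M2rtTA, and 103 ± 8.16 CPM untreated (SD, n = 3). The part of the lower mCherry level in the difference was not tested. The difference ran from -1.29 to -1.0 as each library was left out. The call was also lost in a fit of all 51 libraries (-1.19, adjusted p = 0.119) and of only the groups compared (-1.14, adjusted p = 0.0558). No member was called in the same test in KP4, where 1.43% of all genes were, or in PANC1, where 0.136% were. Over the lines DSG2 rose by 0.83 without M2rtTA (SE 0.16, adjusted p = 0.000304) and differed by 0.27 with it (SE 0.16, adjusted p = 0.213), and the difference of these means did not pass the threshold (-0.56, SE 0.23, adjusted p = 0.142).

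The desmocollins, the partner cadherins, passed the threshold in no OVOL2 contrast against mCherry. DSC2 (chr18:31058840-31102421) stood at 3.87, 2.88 and 3.68 CPM with mCherry and at 1.68, 1.52 and 2.82 CPM with OVOL2 in KP4, which were apart without passing the threshold (-0.77, SE 0.38, edgeR adjusted p = 0.269). Elsewhere in the 3 lines its group means lay between 2.11 and 4.82 CPM. DSC3 (chr18:30989365-31042742), the desmocollin of basal and stratified epithelium, was detected mainly in KP4, at 5.66, 5.33 and 8.33 CPM untreated. In that line it was at 3.66, 3.23 and 4.23 CPM with OVOL2 and at 4.19, 4.11 and 3.45 CPM with mCherry, and with M2rtTA at 3.52, 2.19 and 3.84 against 6.50, 5.11 and 3.30 CPM. These overlapped and were not called (-0.07 and -0.64, adjusted p = 0.936 and 0.163). In PK45H the fitted difference of -1.07 rested on mCherry replicate 1, which had 32 counts beside 0 and 2 in its mates, and it was 2.21 (adjusted p = 0.33) without it. Against untreated libraries, the added alternative, DSC3 in KP4 with M2rtTA was called (-1.0, SE 0.30, edgeR adjusted p = 0.027). DSC3 was not tested in PANC1.

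DSG2, DSC2 and DSC3 lie in 1 run of 7 coding genes over 559.644 kb of chromosome 18, in the order DSC3, DSC2, DSC1, DSG1, DSG4, DSG3, DSG2. Of the other 4, DSG1 had at most 7 counts in any library, DSG4 at most 4, DSC1 at most 5 and DSG3 at most 22. The cluster thus gave counts at its 2 ends, DSG2 at one and DSC2 and DSC3 at the other, and within it the lines differed: DSG2 in PK45H did not differ from HPAFII beyond the threshold (0.30, edgeR adjusted p = 0.55), while its DSC2 was at 4.78, 3.87 and 2.60 CPM beside 22.3, 7.03 and 22.6 CPM in HPAFII. DSG2 was at 109, 106 and 93.7 CPM in PK45H and at 153, 64.0 and 155 CPM in HPAFII. The DSG2 test includes HPAFII replicate 2, the library that stood apart, and replicates 1 and 3 were above every PK45H library.

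**Figure D2:**
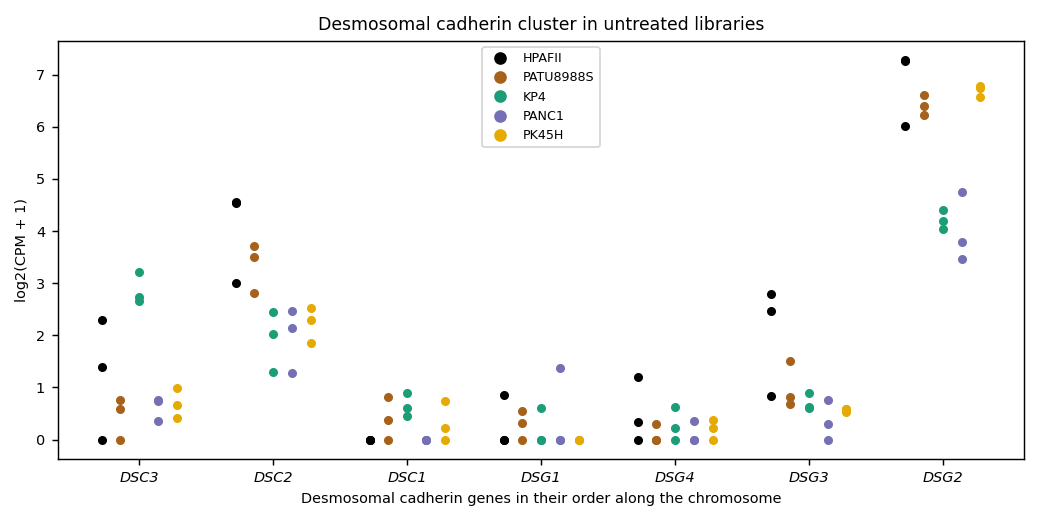
Levels, as log2(CPM + 1), of the 7 desmosomal cadherin genes in chromosome order in the untreated libraries of the 5 lines. Each point is a library and each colour a line. DSG2 was detected in every library, DSC2 was highest in HPAFII and PATU8988S, DSC3 in KP4, and the genes between had few counts.

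PERP, a tetraspan protein (chr6:138088505-138107419), was the member that fell. In PANC1 it stood at 169, 192 and 184 CPM with mCherry and at 74.9, 91.5 and 104 CPM with OVOL2, and with M2rtTA at 180, 155 and 206 against 47.7, 87.5 and 60.1 CPM. The ranges were apart in both sets, with log2 fold changes of -1.0 (SE 0.21, edgeR adjusted p = 0.0128) and -1.43 (SE 0.21, adjusted p = 0.000428). The first was lost without OVOL2 replicates 1 or 2. The mitochondrial share differed between these groups as given above, and with those transcripts left out of the total the PANC1 means were 244 CPM against 127 CPM and, with M2rtTA, 246 against 94.3 CPM. In PK45H with M2rtTA it stood at 42.2, 37.9 and 34.8 CPM with mCherry and at 20.6, 31.6 and 29.1 CPM with OVOL2 (-0.49, SE 0.16, adjusted p = 0.0485), a call lost without any 1 of the 6 libraries except OVOL2 + M2rtTA replicate 2. KP4 was not called against mCherry in either set (0.05 and -0.29, adjusted p = 0.919 and 0.244), and against untreated libraries it was called with M2rtTA (-0.59, SE 0.17, adjusted p = 0.0198). The PK45H call was also lost with another scaling, with either other filter, with a replicate block, and in a fit of all 51 libraries. It was lost as well in a fit of only the groups compared, with robust dispersion and after thinning all libraries to 1165399 counts. The edgeR adjusted p under these settings ran from 0.0502 with robust dispersion to 0.282 after thinning.

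The PERP effect differed between the lines without M2rtTA (edgeR adjusted p = 0.0281) and with it (adjusted p = 0.00871). The first of these was lost without any of 7 libraries: KP4 OVOL2 replicate 2, KP4 mCherry replicates 1 or 3, PANC1 OVOL2 replicates 1 or 2, or PANC1 mCherry replicates 2 or 3. It was also lost without a low-count filter (0.0559), and the second in a fit of only the groups compared (0.0835). Over the lines PERP fell by 0.35 (SE 0.10, adjusted p = 0.0173; -0.21 and 0.257 after thinning) without and by 0.74 (SE 0.11, adjusted p = 8.78e-07) with M2rtTA.

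By line, the counts of members called were as follows, with the share of all genes called in the same contrast. In KP4, 2 of 9 tested members rose without M2rtTA (JUP and DSG2), where 6.82% of all genes were called, 3.26% upward and 3.56% downward. That count was 0 in a fit of all 51 libraries, 1 in a fit of only the groups compared, after thinning or against untreated libraries, and 0 to 1 with any library left out. In the same line 4 of 9 rose with it (DSP, PKP3, JUP and PPL), where 22.4% were called, 9.91% upward and 12.5% downward. In PANC1, 2 of 8 rose (PKP3 and JUP) and 1 fell (PERP) without M2rtTA, where 5.08% were called, 2.12% upward and 2.96% downward. With M2rtTA JUP rose and PERP and PKP2 fell, 3 of 8, where 13.9% were called, 5.76% upward and 8.18% downward. The PKP2 call rested on mCherry + M2rtTA replicate 2, without which its value was 0.42 (edgeR adjusted p = 0.737). In PK45H, 3 of 9 rose without M2rtTA (PKP3, JUP and DSG2), where 8.39% were called, 3.58% upward and 4.81% downward. With M2rtTA 4 of 9 rose (DSP, PKP3, JUP and PPL) and PERP fell, where 15.9% were called, 7.45% upward and 8.4% downward. The members called in 1 set were not the same as in the other, but within a line just the DSG2 difference of PK45H passed edgeR's test of the difference. DESeq2 also called that of PPL in PK45H (1.51, adjusted p = 0.0183).

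**Figure D3:**
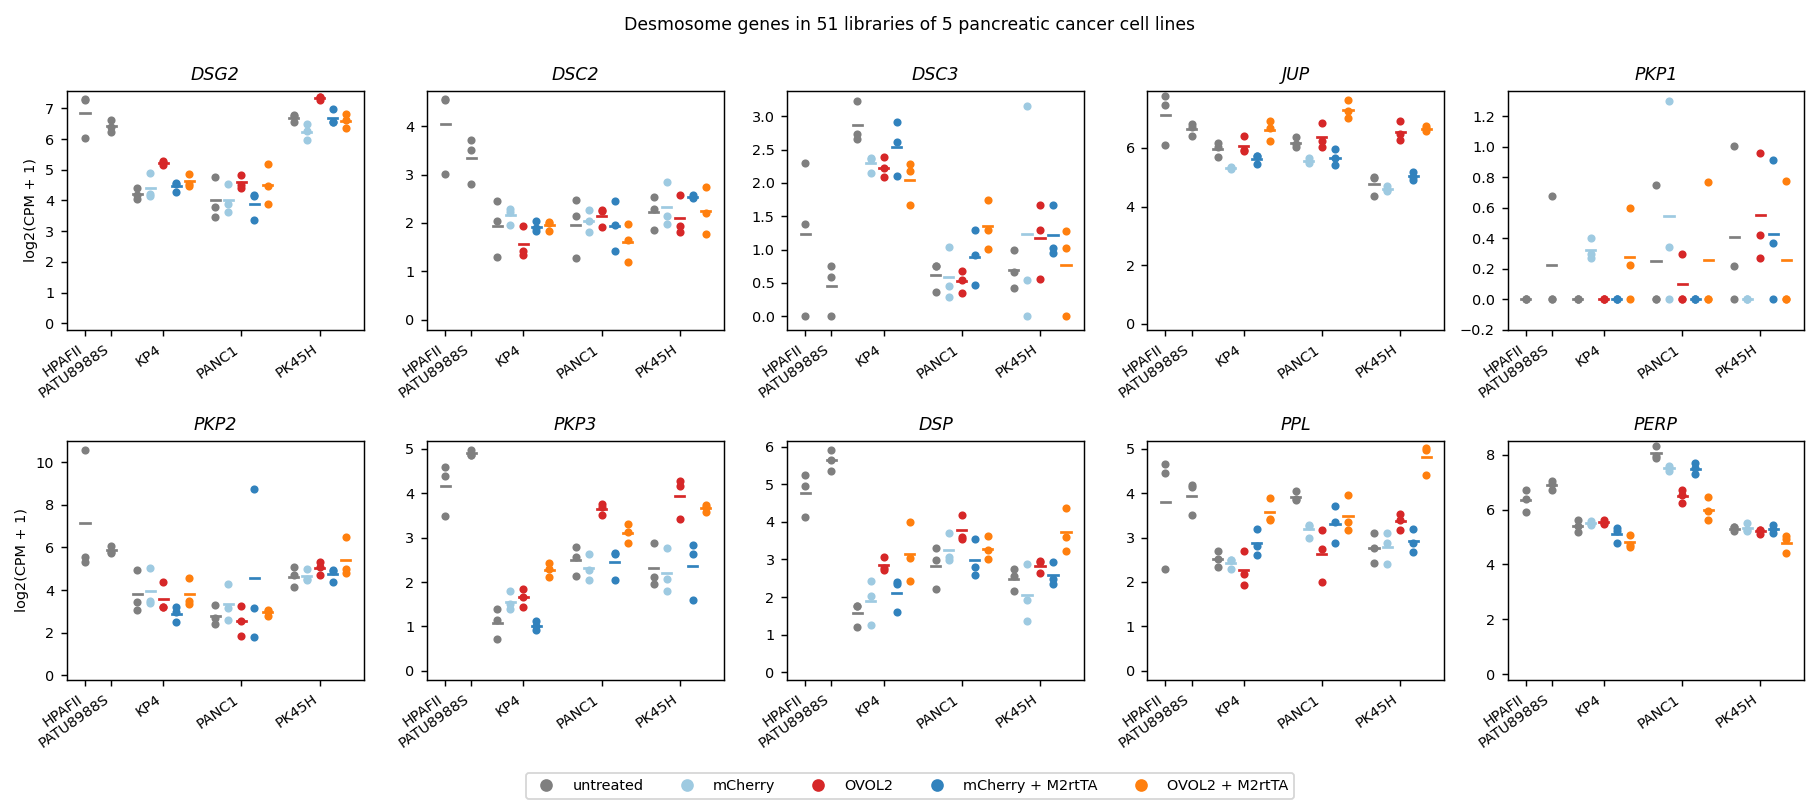
Level of each member, as log2(CPM + 1), in every library of the 17 groups, 1 panel per gene. Points are libraries, bars the mean of the 3 log values of a group, and colours the treatment. JUP lies higher in all OVOL2 groups of PK45H than in its other groups, PERP lower in those of PANC1, and single libraries stand far above their mates for PKP2 in HPAFII and in PANC1 with mCherry and M2rtTA.

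No member passed the threshold between control conditions. Between mCherry and untreated libraries, 0 members were called in KP4, PANC1 or PK45H, where 0.0%, 0.598% and 0.00736% of all genes were called by edgeR. At an unadjusted p under 0.05 there were 2, 3 and 1 members. The share of all genes at that threshold is not given here, so these counts cannot be judged against it. JUP in KP4 was at 51, 64.5 and 71.1 CPM untreated, above the mCherry libraries, with a difference of -0.68 (edgeR adjusted p = 0.51), and differed by -0.60 in PANC1 (adjusted p = 0.31). PERP was at 318, 237 and 245 CPM in untreated PANC1 and at 169 to 192 CPM with mCherry, a difference of -0.53 (adjusted p = 0.36). M2rtTA with mCherry, against mCherry alone, also gave 0 called members, where 0.0%, 0.0% and 0.0294% of all genes were called. There 3, 1 and 2 members had an unadjusted p under 0.05, with the same limit. DESeq2 called 11, 191 and 26 genes in the first comparison, and 16, 23 and 75 in the second.

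Untreated, the 2 lines that were not transduced had higher levels of 8 of the 9 members tested than the mean of KP4, PANC1 and PK45H, where 34.8% of all genes were called and 17.4% were higher. The largest differences by log2 fold change were those of PKP2 (3.73, SE 0.66, edgeR adjusted p = 0.000468), DSP (3.25, SE 0.22, adjusted p = 3.4e-08) and PKP3 (3.01, SE 0.23, adjusted p = 1.13e-07). DSP stood at 30.1, 16.4 and 37.2 CPM in HPAFII and 40.0, 48.9 and 59.8 CPM in PATU8988S, above the 1.28 to 8.89 CPM of all 9 untreated libraries of the other lines. PKP3 stood at 10.2 to 30.4 CPM in these 2 lines and at 0.641 to 6.40 CPM in the others, again with no overlap. DSC2 (2.00), DSG2 (1.74), JUP (1.34), PPL (1.12) and PERP (0.40) were also called, and DSC3 was not (-0.71, SE 0.61, adjusted p = 0.396). Without HPAFII replicate 2 the same 8 were called, with PKP2 at 1.89 (adjusted p = 0.000143). PERP, the smallest of them (adjusted p = 0.0255), lost its call without any 1 of 8 libraries (HPAFII replicates 1 or 3, KP4 replicate 3, PANC1 replicates 2 or 3, PATU8988S replicates 1 or 2, or PK45H replicate 2). Its value ran from 0.30 to 0.48 as each library was left out. PERP also lost its call without a low-count filter (adjusted p = 0.0812), and PPL after thinning (0.0635).

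The order of the untreated lines differed from gene to gene. Of the 9 members, all differed among the 5 lines, as did 57.8% of all genes. DSG2 was highest by its mean in HPAFII (153, 64.0 and 155 CPM), then PK45H (109, 106 and 93.7 CPM) and PATU8988S (74.0, 83.6 and 96.2 CPM), and these 3 did not differ pairwise beyond the threshold. KP4 and PANC1 were lower than PK45H by 2.57 and 2.64 on the log2 scale, and did not differ from each other (0.07, adjusted p = 0.92). JUP was lowest in PK45H (31.5, 19.4 and 30.6 CPM), below each of the other 4 lines, with the call against KP4 lost without KP4 replicate 3 or PK45H replicate 2. PERP was highest in PANC1, above each of the other 4, and KP4 and PK45H did not differ (0.09, adjusted p = 0.79). DSC3 was highest in KP4, above each of the other 4, with the call against HPAFII (adjusted p = 0.047) lost without any KP4 library or without HPAFII replicates 1 or 3.

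PPL in untreated PANC1 (13.6, 13.4 and 15.5 CPM) did not differ from HPAFII (24.2, 3.90 and 20.7 CPM) or PATU8988S (16.5, 10.3 and 17 CPM), and it was above KP4 by 1.61 on the log2 scale (edgeR adjusted p = 0.011). DSP and PKP3 were lowest in KP4, below PANC1 by 1.68 and 2.01. Between HPAFII and PATU8988S, 1 of 9 members was called, where 20.2% of all genes were: PKP2, at 3.26 (adjusted p = 0.04), which was -0.42 and not called without HPAFII replicate 2. Without that library, DSC2, DSG2 and JUP passed the threshold in that comparison.

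After OVOL2 with M2rtTA, the 3 lines were set against untreated HPAFII and PATU8988S, a comparison in which treatment and line cannot be told apart. DSP, PKP2, PKP3, DSG2, DSC2 and PERP were lower, by 1.88, 3.37, 1.72, 1.44, 2.20 and 1.44 on the log2 scale, 6 of 9 members, where 39.7% of all genes were called, 20.5% lower and 19.1% higher. JUP (-0.10, SE 0.16, edgeR adjusted p = 0.694), PPL (-0.10, SE 0.21, adjusted p = 0.762) and DSC3 (0.99, SE 0.64, adjusted p = 0.23) were not called. JUP means after OVOL2 with M2rtTA were 99.0 ± 23.6, 160 ± 33.7 and 100.0 ± 5.92 CPM in KP4, PANC1 and PK45H (SD, n = 3 each), beside 154 ± 78.4 CPM in HPAFII and 99.9 ± 14.7 CPM in PATU8988S. PPL means were 11.0 ± 2.42, 10.6 and 27.5 ± 6.19 CPM, beside 16.3 ± 10.9 and 14.6 ± 3.74 CPM. Both HPAFII means include replicate 2, with 67.1 CPM of JUP and 3.90 CPM of PPL, and without it the differences were -0.27 and -0.28. For PKP2, leaving that library out gave -1.56 (adjusted p = 0.0222).

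**Figure D4:**
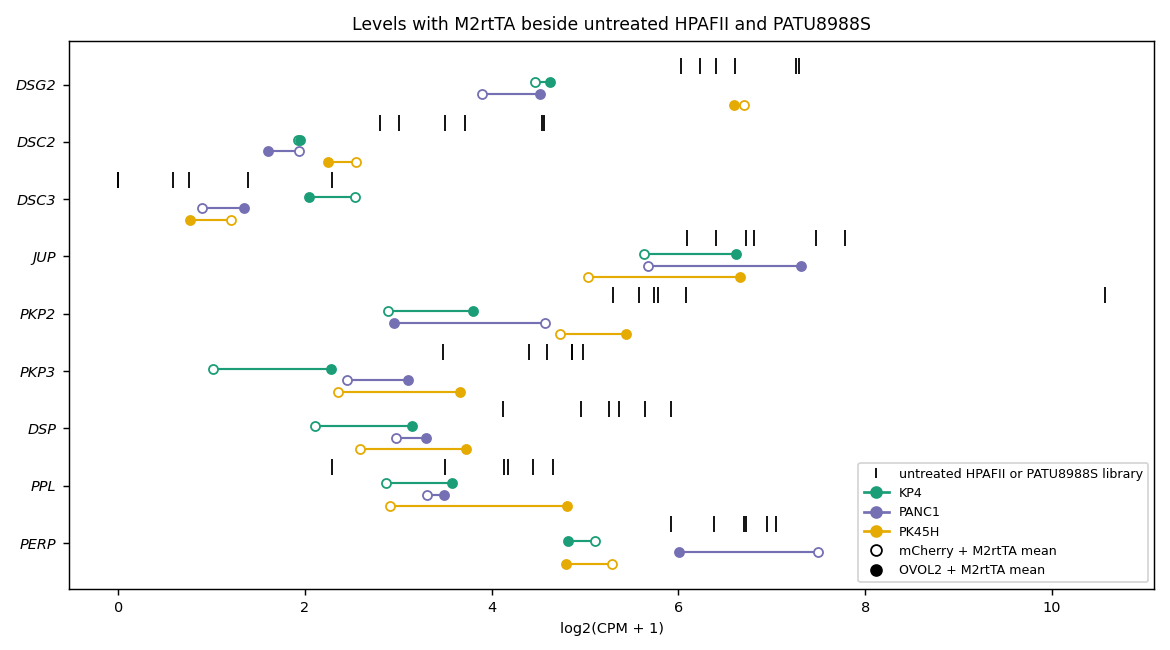
Levels, as log2(CPM + 1), of the members in the 3 lines with M2rtTA, from the mean of the mCherry libraries (open circle) to the mean of the OVOL2 libraries (filled circle), beside the untreated libraries of HPAFII and PATU8988S (ticks). The filled circles of JUP lie within the span of the ticks in all 3 lines, that of PPL in PK45H lies above it, and those of DSP and DSC2 lie below it in all 3 lines.

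Likeness was read across the 17 group means of log2 CPM. Of the 36 pairs among 9 members, 26 had a positive Pearson r, with a median of 0.288 and a range from -0.729 to 0.867. Against the mean of all 9, r was 0.87 for DSP and PKP3, 0.79 for DSC2, 0.76 for PKP2, 0.72 for PPL, 0.64 for JUP, 0.55 for DSG2, 0.18 for PERP and -0.48 for DSC3. Over just the 15 groups of KP4, PANC1 and PK45H, r was 0.88 for PKP3, 0.79 for PPL, 0.68 for DSP and 0.53 for DSG2. It was 0.51 there for PKP2, 0.44 for JUP, 0.31 for DSC2, -0.08 for PERP and -0.59 for DSC3. Groups of 1 line share the line, and each member is part of that mean, so these values describe the table and carry no test. Among 10270 other genes with a mean of at least 5 CPM, the 5 with the highest r to that mean were SLA2 (0.947), TMC5 (0.943), S100A14 (0.934), MST1R (0.926) and CTNND1 (0.925), the last of which encodes p120 catenin. In the same order, their r over the 15 groups was 0.832, 0.856, 0.763, 0.936 and 0.765.

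Other genes of the junction and its filaments were read from fixed lists, over the lines, where 9.32% of all genes were called upward and 8.81% downward without M2rtTA, and 15.7% and 17.3% with it. Of 11 other desmosome and plakin genes 6 were tested over the lines: PKP4 (-0.37, adjusted p = 0.049) and KAZN (-0.53, adjusted p = 0.019) fell without M2rtTA, and with it PKP4 (-0.93, adjusted p = 1.1e-06) and PNN (-0.23, adjusted p = 0.021) fell and PLEC rose (0.24, adjusted p = 0.032). EVPL (0.48 with M2rtTA, adjusted p = 0.081) and DST (-0.34, adjusted p = 0.078) did not pass. Of 5 adherens junction genes 4 were tested and 3 rose in each set. CDH1, encoding E-cadherin, rose by 2.49 and 2.52, CTNNA1 by 0.57 and 0.46, and CTNND1 by 0.30 and 0.37. Of 4 keratins that anchor at desmosomes, KRT18 rose without M2rtTA (0.60). All 4 rose with it, KRT8 by 0.93, KRT19 by 0.60, KRT7 by 0.52 and KRT18 by 0.29. The controls differed too. In PK45H 1 of the 4 was called lower with mCherry and M2rtTA than with mCherry, beside 0.0294% of all genes called. The ductal markers, which include these keratins, summed there to 1917 to 2053 CPM against 2652 to 3061 CPM. In PANC1 1 of the 4 was called lower with mCherry than untreated, beside 0.598% of all genes called. The part of the controls in the rises was not tested. The lines were not alike: with M2rtTA all 4 effects differed between lines, all 4 keratins rose in PK45H, KRT8 and KRT19 rose in KP4, and in PANC1 none rose and KRT19 fell.

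Known regulators of desmosomal genes or proteins were read from a further list of 19, of which 17 were tested. Without M2rtTA, where 18.1% of all genes were called, 4 of the 17 were: KLF4 (0.80), SNAI1 (1.60) and EGFR (0.68) rose and ZEB1 fell (-2.64). With it, where 32.9% were called, 6 of the 17 rose and 2 fell. Of these GRHL3 (1.43), KLF4 (0.71), SNAI1 (1.26), EGFR (0.74) and ADAM10 (1.78) rose, and ZEB1 (-1.95) and PRKCA (-0.41) fell. GRHL3, a transcription factor of epithelial differentiation, was at few CPM: in PANC1 it held 5.12, 5.31 and 7.05 CPM with OVOL2 and M2rtTA against 0.889, 0.581 and 0.623 CPM with mCherry and M2rtTA. In KP4 with M2rtTA, ZEB1 held 5.53, 7.92 and 1.02 CPM with OVOL2 against 16.8, 17.1 and 24.3 CPM with mCherry, and in PK45H 3.84, 5.43 and 5.92 against 23.5, 20.7 and 21.6 CPM, with no overlap in either.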

How the data were processed

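PLATE-seq libraries were made from 100 ng of total RNA after 6 days of culture, per the labels' protocols. The deposited table holds whole-number counts per gene symbol, and the submitters' processing notes name kallisto 0.44.0 and GRCh38. The labels state no other step by the authors. All 51 columns matched a label, and no 2 replicates agreed within sampling noise (chi-square per degree of freedom 18.3 to 73.6 over 51 pairs). Counts were tested with edgeR 4.0.16 in R 4.3.3 (limma 3.58.1; DESeq2 1.42.0 as an alternative): filterByExpr by group, TMM factors, two-sided quasi-likelihood tests, adjusted p over all genes tested, threshold 0.05. Each line was fitted on its 15 libraries, the means over lines on 45, untreated lines on 15 and the last comparison on 51. Fold changes are log2. Levels are CPM with TMM factors over 51 libraries. Likeness used log2 CPM with a prior count of 2. The pipeline was tested on simulated data. Named genes were the 10 members, whatever their values, the fixed lists and the 5 genes most like them. The members and lists were chosen with earlier results of these data known, and the lists were taken from textbook knowledge. Some genes of the list of regulators are not reported here. Alternatives were another scaling, filters, DESeq2, smaller and larger fits, a replicate block, thinning to 1165399 counts, robust dispersion, leaving out each library, and, added after seeing the data, untreated controls.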

Additional observations from a re-analysis of the deposited data

Results flagged for a closer look

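Differences between groups, each by a test of the difference itself, stood out for 5 members. With edgeR, the OVOL2 effect on JUP differed between the 3 lines without M2rtTA (adjusted p = 0.017), with log2 fold changes of 0.81 in KP4, 0.86 in PANC1 and 1.99 in PK45H. The effect on PERP differed between lines without M2rtTA (adjusted p = 0.0281; 0.05, -1.0 and -0.15) and with it (adjusted p = 0.00871; -0.29, -1.43 and -0.49). The effect on PPL differed between lines with M2rtTA (adjusted p = 0.0085; 0.80, 0.26 and 2.06). The PKP2 effect also differed with M2rtTA (adjusted p = 0.0077; 1.10, -4.39 and 0.92), and this was 0.888 without PANC1 mCherry + M2rtTA replicate 2. M2rtTA changed the mean OVOL2 effect on PPL by 1.06 and, within PK45H, the effect on DSG2 by -1.16. The DSG2 value lost its call in a fit of all 51 libraries (adjusted p = 0.119) and of only the groups compared (0.0558), and the PPL value after thinning (0.236).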

How the results depend on the processing

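Of 2308 log2 fold changes recomputed under another setting, 2233 kept their direction and side of the threshold, 62 lost the call, 12 gained one and 1 reversed, and 31 uncalled values changed sign. Leaving out single libraries gave 2394 values, of which 2274 kept both, 111 lost and 7 gained the call, and 2 reversed. The reversals were all PKP2: 0.17 for PANC1 with M2rtTA against untreated libraries, 0.42 without PANC1 mCherry + M2rtTA replicate 2 (from -4.95 to 0.42 as each library was left out), and -0.42 between HPAFII and PATU8988S without HPAFII replicate 2 (from -0.42 to 3.80). Of 212 counts of called members, 193 stayed within 1.5 times. Thinned to the smallest total, the count called was 1 (from 2) and 1 (from 4) in KP4 without and with M2rtTA, 1 (from 3) in PANC1 without it, 3 (from 5) in PK45H with it, 2 (from 5) for the mean without it and 1 (from 2) for a difference between lines without it; thinning leaves fewer counts to test. Fitting only the groups compared gave 1 and 2 in KP4, 0 for the M2rtTA change in PK45H (from 1), and 1 and 1 for differences between lines without and with M2rtTA (from 2 and 3). One fit of all 51 libraries gave 0 in KP4 without M2rtTA, 0 for the M2rtTA change in PK45H and 1 for the lines without M2rtTA. No filter gave 2 in KP4 with M2rtTA and 1 for the lines without it, and untreated controls gave 1 in KP4 without M2rtTA. DESeq2 gave 2 for the M2rtTA change in PK45H, with PPL added. Members that no longer entered a test after thinning count as not called, among them DSP, PKP3 and PPL in KP4 with M2rtTA. The causes were not tested apart from the thinning.

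Leaving out each library gave 0 to 1 and 2 to 3 called members in KP4 without and with M2rtTA, 1 to 3 and 2 to 3 in PANC1, 2 to 3 and 2 to 4 in PK45H, 4 to 5 and 5 to 5 for the means, 0 to 1 for the M2rtTA change in PK45H and 1 to 2 over the lines, 1 to 3 and 2 to 3 for differences between lines, and 7 to 8 for the untreated lines. The replicate numbers do not pair the libraries: same-number deviations correlated over 0.1 in 1, 3 and 0 of 30 pairs in KP4, PANC1 and PK45H. With the replicate block the count for the M2rtTA change in PK45H was 0 (DSG2 -1.15, edgeR adjusted p = 0.0592). The block also ended the calls of DSP in KP4 (adjusted p = 0.0623), PKP2 in PANC1 (0.136) and PERP in PK45H (0.0739) with M2rtTA, of JUP in PANC1 without it (0.0558), of the PKP2 difference between lines (0.0673), and of 4 differences between pairs of untreated lines.

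Over all genes, thinning moved the count called from 932 to 322 and from 3057 to 1667 in KP4 (without and with M2rtTA), from 671 to 297 and from 1843 to 942 in PANC1, from 1139 to 497 and from 2153 to 1100 in PK45H, from 2710 to 1514 and from 4923 to 3175 for the means, from 409 to 199 and from 1129 to 441 for differences between lines, from 1154 to 456 for the mean M2rtTA change and from 4794 to 3080 for the untreated lines. Fitting only the groups compared gave 532 for KP4, 302 for PANC1 and 628 for PK45H in the set without M2rtTA, 1424 for PK45H with it, and 246 and 487 for differences between lines. DESeq2 gave 649 for the first of these, and untreated controls gave 1405 for PANC1 without M2rtTA. For the M2rtTA change within KP4, PANC1 and PK45H (195, 18 and 217 genes), DESeq2 called 455, 131 and 503, the replicate block 112, 10 and 116, only the groups compared 116, 8 and 128, and thinning 42, 3 and 66; no filter called 114 in KP4, and the fit of 51 libraries 49 in PANC1 and 338 in PK45H. Between mCherry and untreated libraries (0, 79 and 1 genes) the fit of 51 called 11, 132 and 44; only the groups compared called 23 and thinning 40 in PANC1. With M2rtTA against without it in mCherry libraries (0, 0 and 4 genes) the fit of 51 called 23, 27 and 28. Members at a few CPM, PKP1, DSC3, DSC2 and, in KP4, PKP3 among them, limit what these depths can show.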

Other observations

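KRT19, one of the keratins whose filaments desmosomes anchor, moved in opposite directions in PANC1 and PK45H. In PANC1 it stood at 249, 221 and 238 CPM with mCherry and at 104, 108 and 123 CPM with OVOL2. In PK45H it stood at 92.1, 72.5 and 87.1 CPM with mCherry and at 185, 206 and 169 CPM with OVOL2. The ranges were apart in both lines, KRT19 fell in PANC1 by 1.07 on the log2 scale without M2rtTA and by 0.56 with it, and its effect differed between lines in both sets (edgeR adjusted p = 1.78e-08 and 5.99e-10). KRT18 differed between lines as well (adjusted p = 1.46e-05 and 9.69e-08), and KRT7 and KRT8 did with M2rtTA (0.00858 and 0.00108). KAZN, encoding kazrin, a binding partner of periplakin, held 24.1, 18.6 and 20.4 CPM with mCherry and 7.08, 5.39 and 5.40 CPM with OVOL2 in PK45H, and its effect without M2rtTA differed between lines (adjusted p = 0.00145).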
